A study of Mus musculus with 60 samples.

Results

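The 40 genes described here encode proteins that carry a cell from the end of DNA replication through mitosis. They are cyclins and kinases of mitotic entry, checkpoint and kinetochore proteins, spindle motors, cytokinesis proteins and condensin subunits. They were chosen by name from the 55357 genes of the deposited count table. All 40 passed the filter on low counts and were among the 23360 genes tested. PolyA RNA had been sequenced from sorted gut epithelial cells. The mice were 8 weeks old and bore the Lgr5-2A-eGFP allele, in which green fluorescent protein (GFP) is made together with Lgr5, a receptor of crypt base stem cells. Every group shares this allele, and mice without it were not analysed here. The small intestine was cut into proximal, middle and distal parts of equal length and the colon into a proximal and a distal part. Sorting on fluorescence gave 3 fractions per part, GFP-high, GFP-intermediate and GFP-negative, and so 15 groups of 4 libraries numbered 1 to 4. The labels do not give the number of mice per library or their sex.

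The intestinal epithelium is renewed from crypts. Stem cells at the crypt base divide, their progeny divide further as they move upward, and the cells then leave the cell cycle and differentiate. Transcripts of mitosis genes are made mostly in the late S, G2 and M phases and are removed as cells exit mitosis, so their level in a bulk sample moves with the number of cells near division and with the RNA per such cell. These 2 quantities cannot be told apart in these libraries.

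Promoters of many mitosis genes are known for a pair of elements. One is the CCAAT box, bound by NF-Y. The other is the cell cycle genes homology region (CHR), bound by the DREAM complex in resting cells and by complexes with B-MYB and FOXM1 in dividing cells. RefSeq promoter windows (GRCm38.p6) from 250 bases before to 50 bases after the annotated start were found for 35 of the 40 genes, as 38 windows. Cdc25c, Tpx2, Aurkb, Kif20a and Ccna2 were not among them. The letters searched for the CCAAT box were CCAAT, which reads ATTGG on the other strand. The CHR was searched as TTTGAA on both strands (its other strand reads TTCAAA). A second form of the CHR, TTCGAA, reads alike on both strands. A CCAAT match was present in 28 of the 38 windows (73.7%), against 37.4% of 32851 windows of all genes of the same length, and 20 windows (52.6%, against 11.7%) held 2 or more. A CHR match was present in 30 windows (78.9%, against 19.2%). Both were present in 26 windows (68.4%, against 7.52%). Bub3, Ect2 and Prc1 each have a second window that overlaps the first, so their matches are counted again. The windows of all genes belong to 27025 genes and were not limited to protein-coding ones, whereas every member is protein-coding. In 1 case a CCAAT and a CHR match shared a base. The windows of Pttg1, Nusap1, Birc5, Mad2l1, Ncaph and Nuf2 held neither. A match describes the letters only.

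The 120 bases before the start are printed for 12 genes described below. They include genes that rose in GFP-high cells with and without the elements, and Plk1 and Pttg1, which departed from the others. They are written in the direction of transcription, and capitals mark CCAAT and CHR matches. Cdk1, Top2a, Cdc20 and Ube2c carry both elements in this stretch, as does Bub3 before the first of its 2 annotated starts, the one printed. Ccnb2 carries 3 CCAAT boxes and has a CHR match at base 5 after the start, and Ttk carries 2 with a CHR match at base 8 after it. Ccnb1 carries 2 CCAAT boxes and has no CHR match in its window. Plk1 carries 1 CCAAT box and has its CHR match at base 31 after the start. Pttg1, Nusap1 and Birc5 carry neither. Whether the matches go with the values below was not tested.
Ccnb1, chr13:100786487-100786606, minus strand: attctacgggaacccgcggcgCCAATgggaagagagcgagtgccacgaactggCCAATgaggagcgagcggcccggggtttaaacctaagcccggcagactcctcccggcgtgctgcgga
Ccnb2, chr9:70421555-70421674, minus strand: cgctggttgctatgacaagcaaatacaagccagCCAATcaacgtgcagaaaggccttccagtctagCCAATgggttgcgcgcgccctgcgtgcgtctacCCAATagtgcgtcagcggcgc
Cdk1, chr10:69352913-69353032, minus strand: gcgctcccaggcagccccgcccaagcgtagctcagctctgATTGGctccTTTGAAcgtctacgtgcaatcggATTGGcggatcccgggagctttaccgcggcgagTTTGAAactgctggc
Top2a, chr11:99024190-99024309, minus strand: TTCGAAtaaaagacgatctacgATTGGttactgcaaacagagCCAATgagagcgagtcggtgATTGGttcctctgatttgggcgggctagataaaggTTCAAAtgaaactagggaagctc
Cdc20, chr4:118437344-118437463, minus strand: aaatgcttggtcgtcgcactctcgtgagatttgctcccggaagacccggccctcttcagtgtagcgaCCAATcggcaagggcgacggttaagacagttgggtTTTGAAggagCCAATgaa
Ube2c, chr2:164769809-164769928, plus strand: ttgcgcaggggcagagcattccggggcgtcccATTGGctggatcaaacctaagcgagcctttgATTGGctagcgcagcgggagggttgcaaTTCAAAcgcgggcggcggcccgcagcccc
Ttk, chr9:83834569-83834688, plus strand: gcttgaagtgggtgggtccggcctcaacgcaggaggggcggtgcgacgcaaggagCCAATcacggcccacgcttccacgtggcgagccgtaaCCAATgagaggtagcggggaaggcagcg
Bub3, chr7:131560250-131560369, plus strand: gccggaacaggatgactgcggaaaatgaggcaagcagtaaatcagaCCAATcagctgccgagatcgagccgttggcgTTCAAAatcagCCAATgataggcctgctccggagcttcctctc
Birc5, chr11:117849117-117849236, plus strand: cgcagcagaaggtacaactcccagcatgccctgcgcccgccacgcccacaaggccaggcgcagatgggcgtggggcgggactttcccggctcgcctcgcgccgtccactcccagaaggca
Plk1, chr7:122159315-122159434, plus strand: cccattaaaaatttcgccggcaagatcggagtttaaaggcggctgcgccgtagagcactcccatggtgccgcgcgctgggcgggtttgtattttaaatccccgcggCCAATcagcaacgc
Pttg1, chr11:43425982-43426101, minus strand: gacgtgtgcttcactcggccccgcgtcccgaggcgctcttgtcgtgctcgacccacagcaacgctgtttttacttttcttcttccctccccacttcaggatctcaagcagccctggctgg
Nusap1, chr2:119618178-119618297, plus strand: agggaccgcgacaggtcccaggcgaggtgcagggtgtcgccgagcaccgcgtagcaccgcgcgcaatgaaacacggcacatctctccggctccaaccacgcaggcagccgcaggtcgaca

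**Figure D1:**
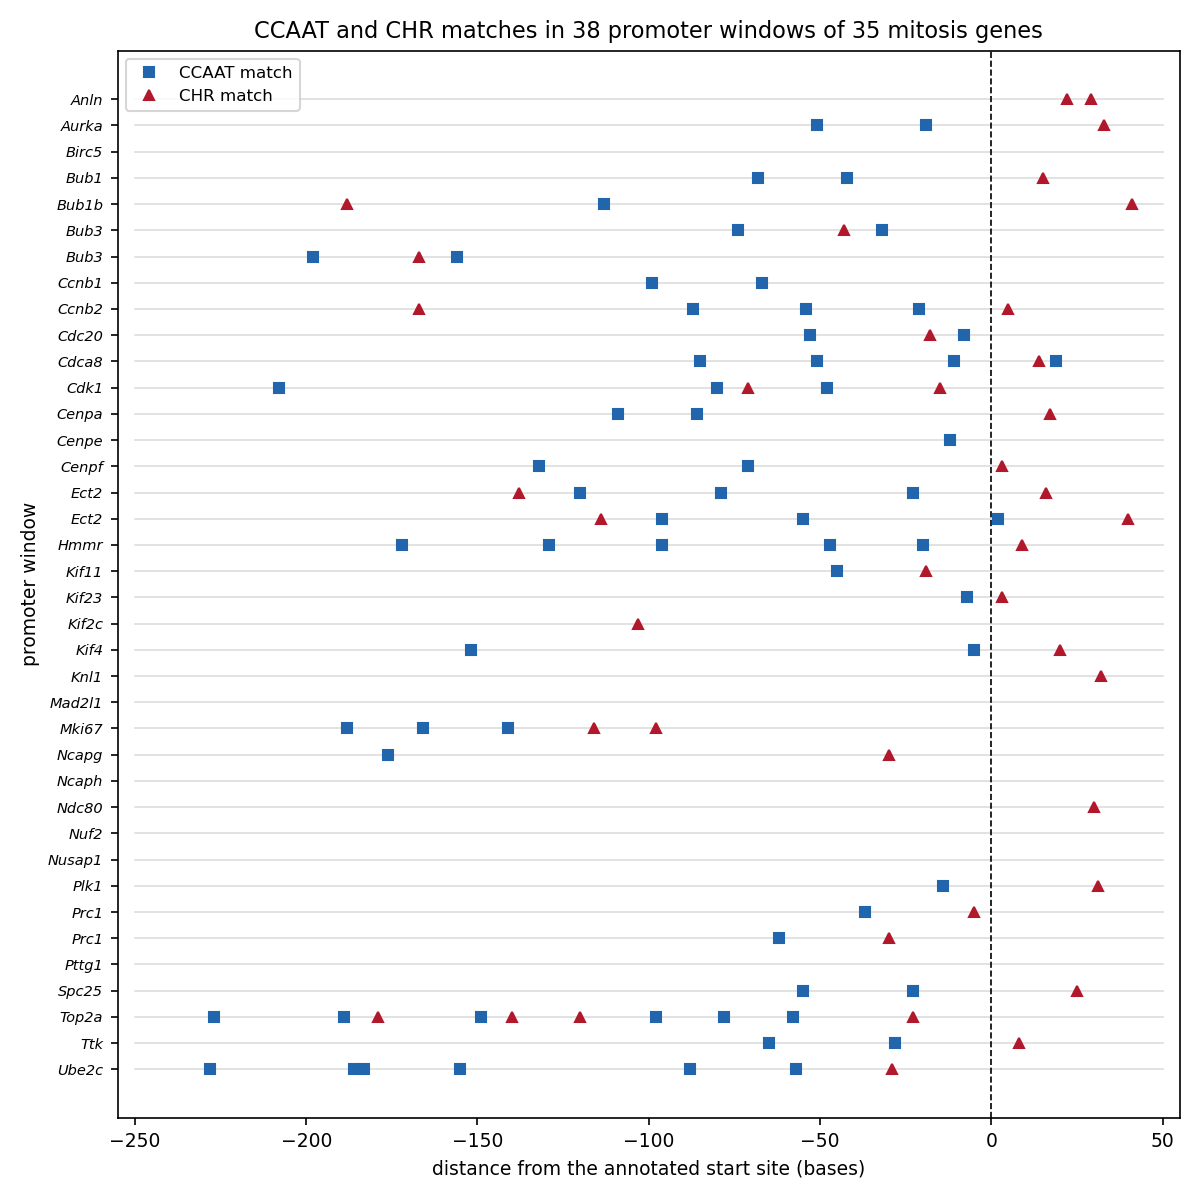
Positions of CCAAT matches (squares) and CHR matches (triangles) in 38 promoter windows of 35 mitosis genes, on an axis of bases from the annotated start site. Most CHR matches lie within 50 bases of the start and most CCAAT matches upstream of them, and 6 genes have an empty line.

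Total counts ran from 55411864 to 113917959 per library. Lgr5 itself followed the gate: it was at 145 to 598 CPM (counts scaled to a common library size by TMM) in GFP-high libraries, 55.7 to 188 CPM in GFP-intermediate and 1.64 to 17.4 CPM in GFP-negative libraries. The 19 leukocyte markers summed to 139 to 4024 CPM in GFP-negative libraries and to at most 47.5 CPM in the others. Of the 19, 17 or 18 were lower in GFP-high cells than in the GFP-negative ones in each gut part. In GFP-high libraries 16 of these markers were at 0 in at least 1 library, among them Cd3e in 5 of 20. No marker other than Mzb1 was at 0 in a GFP-negative library. Their part in the GFP-negative levels below was not tested. Sex-linked transcripts separated the libraries numbered 1. Xist had 26925 to 164513 counts and Ddx3y had 0 counts in the 9 small intestinal libraries numbered 1, whereas the 6 colon libraries numbered 1 had 12343 to 47814 counts of Xist and 3170 to 4520 of Ddx3y. Libraries numbered 2 to 4 had at most 136 counts of Xist. Results without the libraries numbered 1 are given where they differ.

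Summed over the 40 genes, the mean level was highest in GFP-high cells, lower in GFP-intermediate and lowest in GFP-negative cells of every gut part. Libraries of GFP-high and GFP-intermediate cells overlapped in each part except the distal small intestine. In the distal small intestine the sums of libraries 1 to 4 were 6121, 6413, 6280.4 and 5816 CPM in GFP-high cells, 4358, 5047, 5246 and 5089 CPM in GFP-intermediate cells and 928, 2138, 1919 and 2478 CPM in GFP-negative cells. In the distal colon they were 3703, 3404, 6681 and 4372 CPM, then 2561, 2777, 4539 and 2853 CPM, and 1527, 1526, 2867 and 2004 CPM. Library 3 was the highest of its 4 in each fraction of the distal colon, so these groups overlap although the order of the fractions holds within every number. Between libraries of the same number the GFP-high sum was 1.87 to 2.65 times the GFP-negative sum in the proximal small intestine, 1.87 to 3.02 times in the middle, 2.35 to 6.59 times in the distal small intestine, 1.83 to 3.35 times in the proximal colon and 2.18 to 2.42 times in the distal colon. The upper value of the distal small intestine came from number 1, whose GFP-negative library had the lowest sum of all 60.

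**Figure D2:**
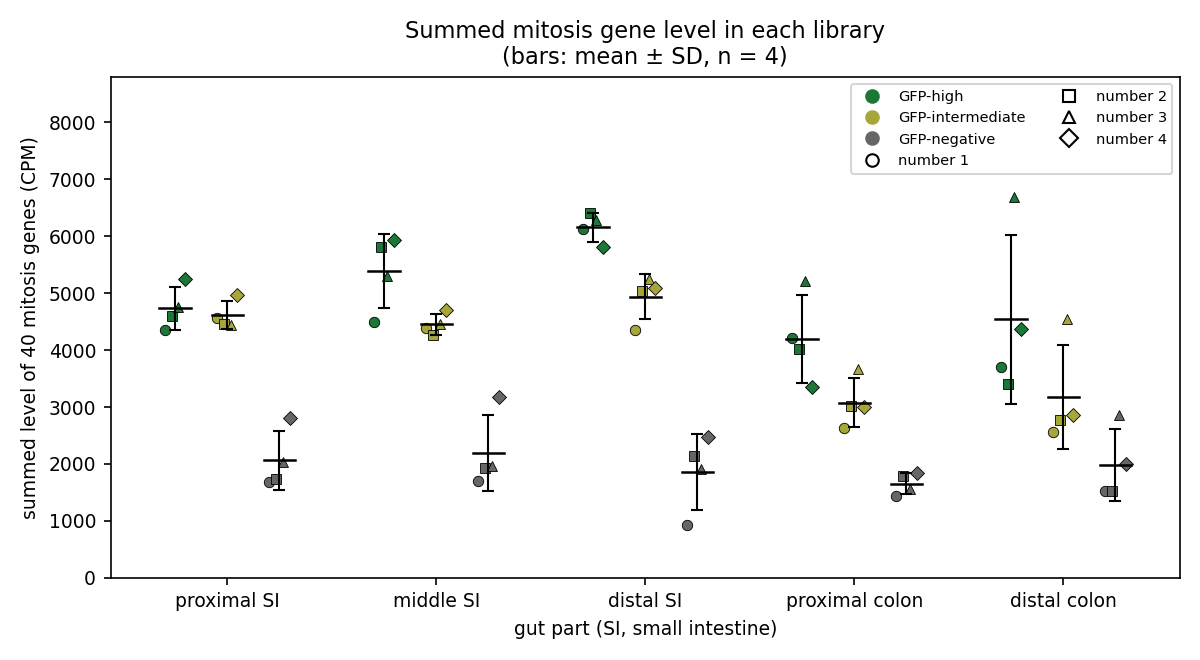
Summed level of the 40 mitosis genes (CPM, vertical axis) in each library by gut part, coloured by GFP fraction and shaped by library number, with mean ± SD (n = 4). GFP-negative libraries sit between 928 and 3168 CPM, all below the GFP-high and GFP-intermediate libraries of the same part except in the distal colon.

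Per length of transcript, the 40 genes spanned a wide range of levels. In GFP-high cells of the distal small intestine the mean was lowest for Cdc25c, the phosphatase that activates CDK1, at 4.32 RPKM (CPM per kilobase of gene length) and highest for Top2a, the topoisomerase that untangles sister chromatids, at 106 RPKM. The next highest were Mki67, the coat protein of mitotic chromosomes used as a proliferation marker, at 92.2 RPKM, the ubiquitin-conjugating enzyme Ube2c at 77.8 RPKM and the cyclin Ccnb2 at 74.4 RPKM. Pttg1 stood near the bottom at 8.18 ± 1.07 RPKM (SD, n = 4). In GFP-negative cells of the distal colon the order differed at the top: Plk1 was highest at 73.7 ± 25.8 RPKM, and Mki67 was next at 30.5 RPKM.

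The first comparison asks which of these genes differ between GFP-high and GFP-negative cells of the same gut part. Nearly all were higher in GFP-high cells. In each of the 5 parts 38 of the 40 genes rose and 0 fell (edgeR quasi-likelihood test, adjusted p below 0.05). Of all genes tested, 22.5% were higher in the proximal small intestine, 22.7% in the middle, 25.7% in the distal small intestine, 11.3% in the proximal colon and 11.2% in the distal colon. The median log2 difference of the 40 genes was 1.17, 1.28, 1.79, 1.44 and 1.28 in this order, beside medians over all genes from -0.04 to 0.00. The same 37 genes rose in 5 of 5 parts, and the other three are Plk1, Birc5 and Pttg1. Markers of differentiated cells moved with this contrast as well. In the small intestine the 5 goblet cell markers summed to 1671 to 3807 CPM in GFP-high and 32025 to 58100 CPM in GFP-negative libraries, and the 7 absorptive cell markers to 229 to 1215 and 4760 to 14340 CPM. The 4 Paneth cell markers went the other way there, at 4043 to 19657 CPM in GFP-high and 317 to 846 CPM in GFP-negative libraries, as did the 4 tuft cell markers, at 93.3 to 316 and 24.9 to 53.8 CPM. In the colon goblet markers summed to 10598 to 29733 and 15798 to 56468 CPM, and the 4 enteroendocrine markers to 58.2 to 291 and 327 to 11165 CPM, the highest in the proximal colon. Goblet and enteroendocrine markers were at 0 in 0 libraries. The part of these cell types in the differences below was not tested. Nothing states that the numbered libraries come from separate animals, so p-values measure the spread between these libraries.

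Genes of mitotic entry rose in every part. Cdk1 encodes the kinase that drives entry into mitosis. Its level in libraries 1 to 4 of the proximal small intestine was 81.3, 88.4, 93.7 and 94.9 CPM in GFP-high cells, 100.05, 97.1, 95.1 and 99.6 CPM in GFP-intermediate cells and 38.7, 34.4, 35.1 and 32.4 CPM in GFP-negative cells. In the distal colon it was 50.1, 50.9, 95.8 and 73.2 CPM in GFP-high cells and 25.3, 26.5, 58.2 and 23.9 CPM in GFP-negative cells. GFP-negative libraries lay below the rest in the proximal small intestine, while in the distal colon the GFP-negative library 3 lay above 2 GFP-high libraries. The log2 difference between GFP-high and GFP-negative cells was 1.35 ± 0.23 (SE, adjusted p = 1.97e-06) in the proximal small intestine and 1.01 ± 0.23 (adjusted p = 0.0006) in the distal colon. Its partner Ccnb1 (cyclin B1) was at 119, 139.8, 126 and 116 CPM in GFP-high and 18.4, 51.4, 38.1 and 47.5 CPM in GFP-negative cells of the distal small intestine, without overlap, a difference of 1.69 ± 0.23. Ccna2, Ccnb2 and Cdc25c rose by 0.89 to 1.74 over the 5 parts.

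Top2a showed one of the larger rises. In the distal small intestine it was at 951, 998, 957 and 927 CPM in GFP-high cells, 607, 771, 755 and 802 CPM in GFP-intermediate cells and 86.3, 251, 228 and 294 CPM in GFP-negative cells. The 3 fractions did not overlap there, and GFP-high exceeded GFP-negative cells by 2.16 ± 0.27 on the log2 scale (adjusted p = 1.18e-09). The smallest of its differences was 1.43 ± 0.26, in the distal colon. Mki67 rose by 1.10 to 1.66.

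Among the mitotic kinases the picture was split. Aurka, which builds the spindle poles, rose by 0.72 to 1.52, and Aurkb, the kinase of the chromosomal passenger complex, by 1.28 to 1.83. Cdca8 (borealin), of the same complex, rose by 0.96 to 1.31. Birc5 (survivin), a further subunit, rose in 4 parts by 1.03 to 1.49, and in the proximal small intestine its difference of 0.53 ± 0.26 missed the threshold (adjusted p = 0.0849).

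Plk1, the polo-like kinase of mitotic entry and spindle assembly, departed from the others. It rose only in the proximal small intestine by this test, where it was at 87.8, 101, 106 and 105 CPM in GFP-high cells, 101, 104, 110.0 and 117 CPM in GFP-intermediate cells and 57.6, 60.8, 74.5 and 61.4 CPM in GFP-negative cells. The difference of GFP-high from GFP-negative cells there was 0.66 ± 0.20 (adjusted p = 0.0049). In the distal colon it was at 116, 119.6, 159 and 164 CPM in GFP-high cells, 160.3, 166, 195 and 159.7 CPM in GFP-intermediate cells and 167, 184, 215 and 82.1 CPM in GFP-negative cells. Of the GFP-negative libraries there, 3 exceeded all GFP-high libraries and number 4 was below them. The difference was 0.43 ± 0.20 (adjusted p = 0.0638) in the middle and 0.45 ± 0.20 (adjusted p = 0.0517) in the distal small intestine, 0.18 ± 0.20 (adjusted p = 0.564) in the proximal colon and -0.22 ± 0.20 (adjusted p = 0.461) in the distal colon. With the replicate number as a block the middle and distal small intestinal differences passed the threshold (adjusted p = 0.0479 and 0.0344).

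**Figure D3:**
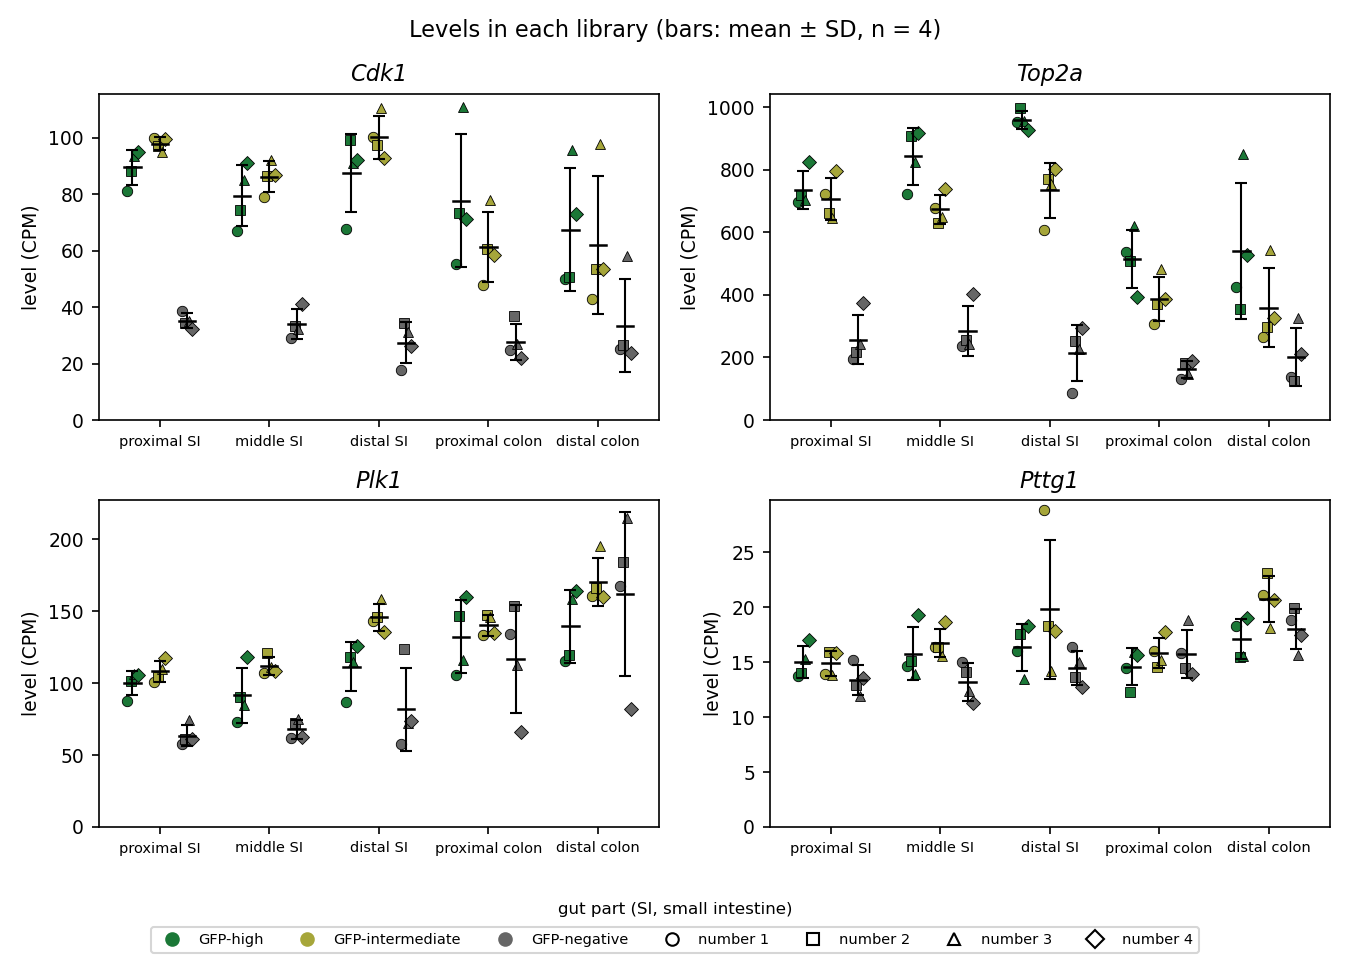
Levels (CPM, vertical axes) of Cdk1, Top2a, Plk1 and Pttg1 in each library by gut part, coloured by GFP fraction and shaped by library number, with mean ± SD (n = 4). Cdk1 and Top2a are lowest in GFP-negative cells, Plk1 overlaps between fractions in the colon, and Pttg1 stays between 11.3 and 28.9 CPM in every group.

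Spindle assembly checkpoint genes delay chromosome separation until every kinetochore is attached. All 5 rose in every part. Ttk, the checkpoint kinase MPS1, had the largest difference of all members in 4 parts, at 1.99 ± 0.28 in the middle small intestine, 2.47 ± 0.29 in the distal small intestine, 2.02 ± 0.28 in the proximal colon and 1.68 ± 0.28 in the distal colon. Bub3, which carries the checkpoint kinases to kinetochores, had the smallest called difference in both colon parts. In the distal colon it was at 78.3, 77.7, 113 and 96.7 CPM in GFP-high cells and 61.3, 68.3, 89.4 and 69.6 CPM in GFP-negative cells. These groups overlapped, and the difference was 0.34 ± 0.11 (adjusted p = 0.0132). In the distal small intestine, at 109.8, 119, 108 and 102 CPM against 53.0, 63.03, 53.9 and 64.0 CPM, they did not overlap and the difference was 0.91 ± 0.11.

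The anaphase-promoting complex (APC/C) ends mitosis by marking cyclin B and securin for destruction. Its activator Cdc20 rose in every part, by 0.74 to 1.03, and Ube2c, which supplies it with ubiquitin, by 1.28 to 2.01. Securin itself, Pttg1, was called in 0 of 5 parts. In the distal small intestine it was at 16.0, 17.6, 13.5 and 18.3 CPM in GFP-high cells, 28.9, 18.3, 14.2 and 17.9 CPM in GFP-intermediate cells and 16.4, 13.7, 15.01 and 12.8 CPM in GFP-negative cells. The fractions overlapped, and GFP-high differed from GFP-negative cells by 0.18 ± 0.14 (adjusted p = 0.308). In the other parts the difference ran from -0.11 in the proximal colon to 0.26 in the middle small intestine.

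The 7 centromere and kinetochore genes rose in every part, from 0.83 for Cenpa, the centromeric histone, in the middle small intestine to 2.10 for Cenpf in the distal small intestine. The 6 motor and spindle genes did so as well, by 1.00 to 2.27. Nusap1, which bundles spindle microtubules, had the second largest difference after Ttk in the distal small intestine, 2.27 ± 0.27. The cytokinesis genes Kif20a, Kif23, Prc1, Anln and Ect2 rose by 1.03 to 2.07, and the condensin subunits Ncapg and Ncaph by 1.29 to 2.18.

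GFP-intermediate cells were compared with GFP-negative cells next, and most genes were again higher. The number that rose was 39 in the proximal, 40 in the middle and 40 in the distal small intestine, 37 in the proximal colon and 20 in the distal colon, and 0 fell. Over all genes 19.7%, 19.8%, 22.8%, 7.51% and 3.85% were higher. The medians were 1.09, 0.97, 1.42, 0.92 and 0.77. Pttg1 was not called in the proximal small intestine (0.15 ± 0.14) but rose in the middle (0.34 ± 0.14, adjusted p = 0.0479) and distal small intestine (0.45 ± 0.14, adjusted p = 0.00749), the latter with library 1 at 28.9 CPM. Without that library the distal Pttg1 difference was 0.21 (adjusted p = 0.207). The middle call of Pttg1 was lost without GFP-intermediate library 1, 2 or 4 or GFP-negative library 2, 3 or 4. With DESeq2 size factors in the same edgeR fit both were lost (0.24, adjusted p = 0.192, and 0.30, adjusted p = 0.0817). In the proximal colon Plk1, Pttg1 and Knl1, a scaffold of the kinetochore, were not called. Knl1 passed with the replicate block (adjusted p = 0.0137). The distal colon count rested on single libraries and on the design: it was 4 without GFP-intermediate library 3, 12 without GFP-negative library 1 or 2 and 31 without GFP-negative library 3. With the block it was 31 (4.57% of all genes), and with a block fitted within the 3 distal colon fractions, an alternative chosen after seeing the data, 37 (6.55%).

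Between GFP-high and GFP-intermediate cells the differences were small, and they were larger in the colon than in the proximal small intestine by their medians. Those medians were 0.05, 0.31, 0.34, 0.48 and 0.55 from the proximal small intestine to the distal colon, beside 0.00 over all genes in each part. The test called 0 genes in the proximal and middle small intestine, 1 in the distal small intestine and 0 in either colon part, where 0.154%, 1.43%, 5.29%, 0.0171% and 0.548% of all genes were higher. The small intestinal shares depend on the libraries numbered 1. In either direction, 105, 836 and 3165 of all genes were called in its proximal, middle and distal parts. Without number 1 in every group, which leaves fewer libraries, these were 41, 92 and 172. At an unadjusted p below 0.05, 0, 4, 11, 25 and 24 genes were higher, where 3.66%, 8.43%, 12.2%, 4.2% and 9.7% of all genes were, so the 4 of the middle small intestine are near the background. At that threshold 1 member was lower, Cdc20 in the distal small intestine, where 14.9% of all genes were. DESeq2 called 0, 1, 5, 0 and 8 higher, where it called 0.961%, 7.68%, 13.4%, 0.137% and 5.77% of all genes, which leaves its small intestinal counts below the background. A fit of only the groups compared placed more calls in the small intestine than in the colon, with 3, 20, 20, 0 and 6 higher (5.85%, 9.54%, 9.6%, 0.0% and 10.3% of all genes). That fit also called 1 member lower in GFP-high cells of the proximal and 2 in those of the distal small intestine. Within same-number pairs, 10, 24, 26, 34 and 32 of the 40 genes were higher in GFP-high cells in 4 of 4 pairs, against 16.2%, 17.4%, 18.5%, 9.98% and 17.6% of all genes. With the replicate block 8 genes were called in the distal small intestine (6.67% of all genes) and 3 in the distal colon (1.61%), and with the block fitted within the distal colon alone 28 (2.89%). The summed level of GFP-high cells was 0.952 to 1.07 times that of GFP-intermediate cells in the proximal small intestine and 1.23 to 1.53 times in the distal colon.

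The gene called in the distal small intestine was Nusap1, named for this reason after its values were seen. It was at 199, 167.5, 177 and 139.9 CPM in GFP-high cells, 97.8, 96.4, 102 and 99.6 CPM in GFP-intermediate cells and 13.8, 40.5, 36.8 and 50.3 CPM in GFP-negative cells. The 3 fractions did not overlap, and GFP-high exceeded GFP-intermediate cells by 0.79 ± 0.26 (adjusted p = 0.0323, and 0.0154 with the replicate block). The call was lost without GFP-high library 1, 2 or 3 or any 1 of the GFP-intermediate libraries. In the other parts its difference was 0.20, 0.69, 0.73 and 0.80, and none was called.

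In this comparison 24 genes were above 0 in 5 of 5 parts, and 3 were below 0 in 4 or 5 parts, where the shares over all genes were not counted. The 3 are Plk1 (-0.11, -0.29, -0.39, -0.09 and -0.29), Cdc20 (-0.04, -0.16, -0.41, 0.13 and -0.07) and Pttg1 (0.01, -0.09, -0.28, -0.12 and -0.28), none of them called in the fit over all libraries. In the distal small intestine Cdc20 was at 92.0, 129, 126 and 120.02 CPM in GFP-high cells, 159.7, 151, 176 and 132 CPM in GFP-intermediate cells and 44.5, 90.8, 73.9 and 61.0 CPM in GFP-negative cells. All 4 GFP-intermediate libraries were above the GFP-high ones. Plk1 showed the same order there, with 86.8, 118.5, 115 and 126 CPM in GFP-high and 143, 146, 158.5 and 135 CPM in GFP-intermediate cells.

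**Figure D4:**
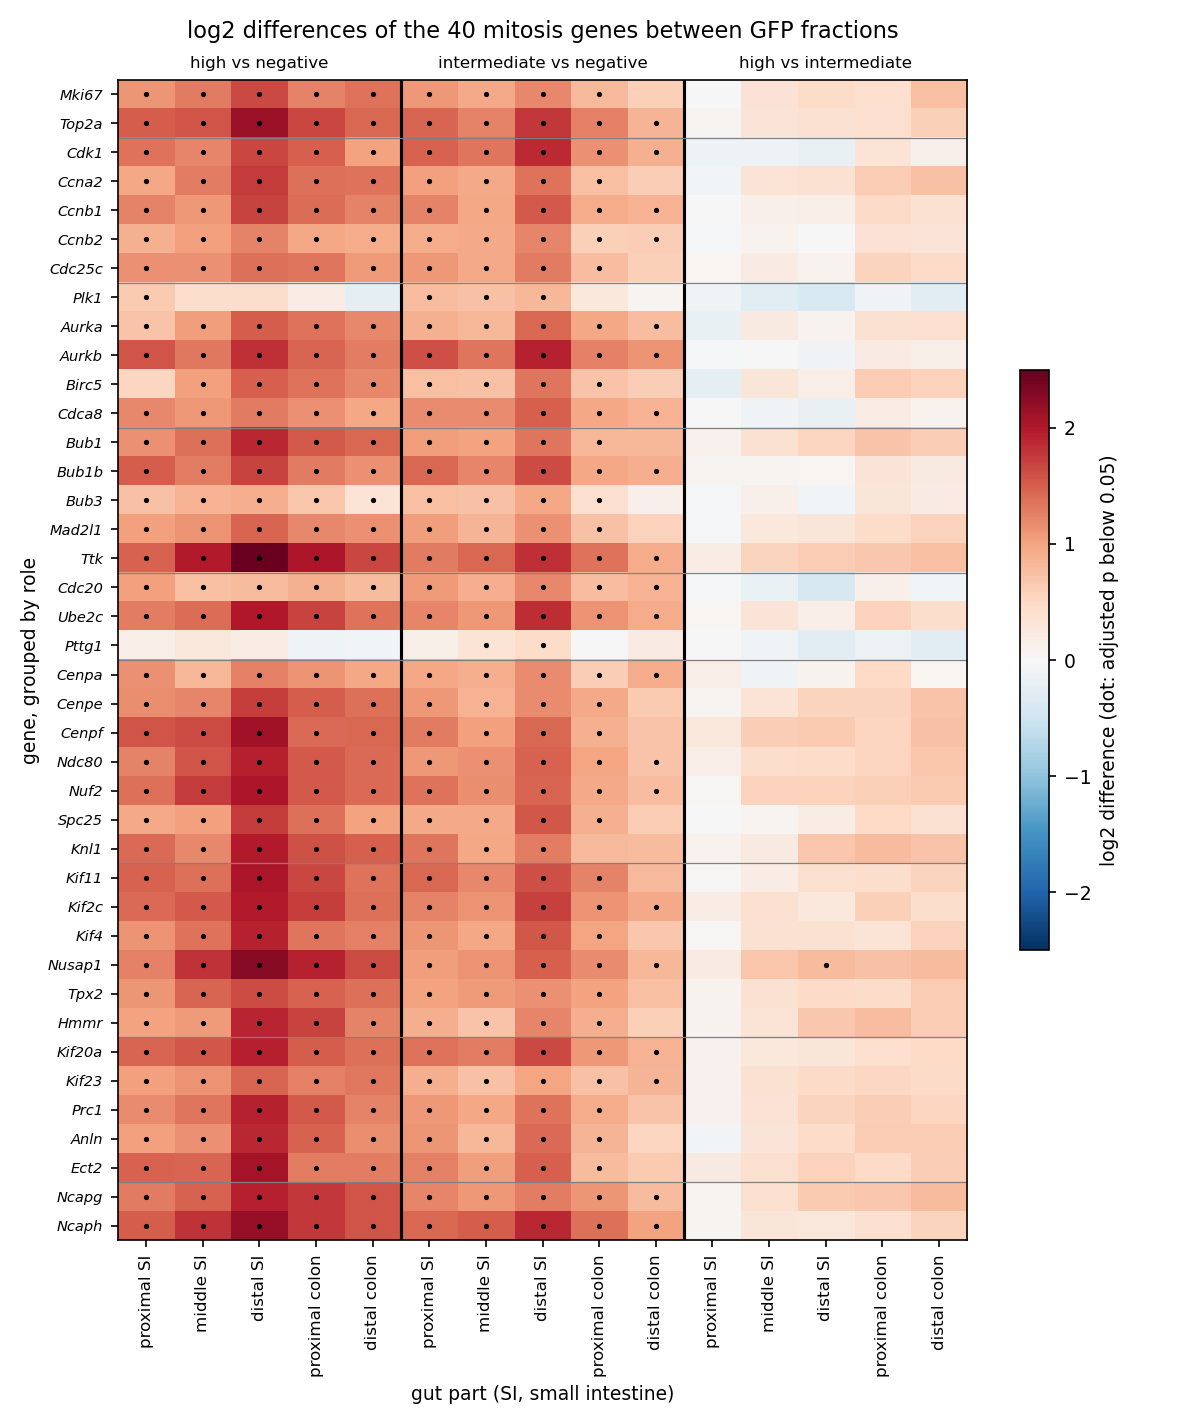
Log2 differences (colour) of the 40 mitosis genes between GFP fractions in 5 gut parts (columns), with genes grouped by role (rows) and a dot where the adjusted p is below 0.05. GFP-high and GFP-intermediate cells exceed GFP-negative cells for nearly every gene, while 1 dot, Nusap1 in the distal small intestine, stands in the GFP-high against GFP-intermediate columns.

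The next comparison set the colon against the small intestine within each GFP fraction, taking the mean of the 2 colon parts minus the mean of the 3 small intestinal parts. In GFP-intermediate cells 32 genes were lower and 1 higher in the colon, with a median of -0.56. Cell type markers differed between the organs too. In GFP-intermediate libraries goblet markers summed to 18664 to 37067 CPM in the colon and 3042 to 10770 CPM in the small intestine, and Paneth markers to 1.40 to 27.0 CPM and 4176 to 11833 CPM. Of the Paneth markers, Lyz1 was at 0 in 3 and Mptx2 in 2 of these 8 colon libraries. Their part in the organ difference was not tested. In GFP-high cells 12 were lower and 1 higher (median -0.25), and in GFP-negative cells 9 were lower and 2 higher (median -0.18). Of all genes 21.3% were lower and 20.9% higher in GFP-high cells, 22.0% and 22.1% in GFP-intermediate cells and 22.4% and 28.1% in GFP-negative cells, so the share of members lower in GFP-negative cells is near the background. For 39 of the 40 genes the lowest of the 3 differences was that of GFP-intermediate cells. The share over all genes was not counted. Whether the organ difference is unequal between GFP-high and GFP-intermediate cells is tested below. Between GFP-intermediate and GFP-negative cells this was not tested. When library sizes were scaled by total counts instead of TMM, which moved the median of all genes in GFP-negative cells by 0.22, the median in GFP-negative cells turned to 0.03 with 2 genes lower and 5 higher. Without the 3 distal colon libraries numbered 3, the numbers lower were 24 in GFP-high (20.1% of all genes) and 21 in GFP-negative cells (21.6%). Without the libraries numbered 1 in every group, 7 genes were lower in GFP-high cells.

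Aurka, Ccnb2, Cdc20, Cdca8, Cenpa, Top2a and Ube2c were lower in the colon in all 3 fractions, as were 9.67% of all genes. With total-count scaling 0 of these 7 were called in all 3. Without the libraries numbered 1 in every group 6 of them were, all but Aurka. A fit of only the groups compared kept 5 of them, all but Ccnb2 and Top2a. Top2a had the largest difference in GFP-intermediate cells, -0.92 ± 0.17 (adjusted p = 8.79e-06). Its libraries there lay at 265, 298, 543 and 327 CPM in the distal colon. In the proximal colon they lay at 308, 371, 481 and 387 CPM, and both parts were below the 607 to 802 CPM of the small intestine. In GFP-high cells it differed by -0.67 ± 0.17, where colon libraries ran from 356 to 849 CPM and small intestinal ones from 695 to 998 CPM. Ube2c differed by -0.87 ± 0.14 and Cdca8 by -0.86 ± 0.13 in GFP-intermediate cells.

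Plk1 was the 1 gene higher in the colon in all 3 fractions, by 0.43 ± 0.13 in GFP-high (adjusted p = 0.00407), 0.36 ± 0.13 in GFP-intermediate (adjusted p = 0.0178) and 0.96 ± 0.12 in GFP-negative cells (adjusted p = 3.41e-09). Its GFP-negative libraries were at 134.5, 154, 113 and 65.9 CPM in proximal and 167, 184, 215 and 82.1 CPM in distal colon, and 57.45, 124, 72.1 and 73.8 CPM in the distal small intestine. Library 4 was the lowest in both colon parts. Pttg1 was higher in the colon in GFP-negative cells, by 0.30 ± 0.09 (adjusted p = 0.00482).

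**Figure D5:**
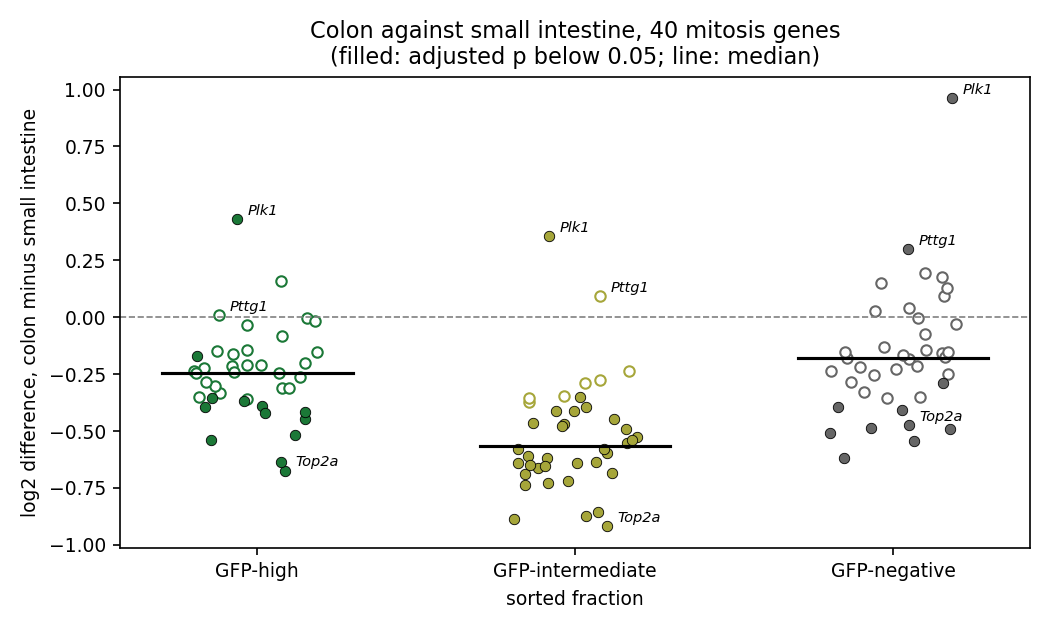
Log2 difference between colon and small intestine (vertical axis) for each of the 40 mitosis genes in the 3 GFP fractions, with filled points at an adjusted p below 0.05 and a line at the median. The medians are -0.25, -0.56 and -0.18, and Plk1 lies above 0 in each fraction.

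The interaction of organ and fraction tests whether the fractions differ by unequal amounts in the 2 organs. For GFP-high against GFP-negative cells 2 genes were lower in the colon, where 17.7% of all genes were. These were Plk1 (-0.53 ± 0.18, adjusted p = 0.0178) and Bub3 (-0.32 ± 0.10, adjusted p = 0.00825). Plk1 lost its call without GFP-negative library 3 of the distal colon (-0.45) and without the libraries numbered 1 (-0.38). For GFP-high against GFP-intermediate cells 39 of 40 genes had a larger difference in the colon, and the share over all genes was not counted. The median of the members was 0.26, beside -0.002 over all genes. Of the members 0 were called by edgeR, and 0 by DESeq2, where 0.291% of all genes were called in either direction by edgeR. At an unadjusted p below 0.05 there were 3 members and 7.48% of all genes, so the members' count is at the background. The interaction of colon part with GFP-high against GFP-negative cells called 0 members, 0 by DESeq2 and 1 at an unadjusted p below 0.05, with 0.616% of all genes called in either direction by edgeR and 8.28% at an unadjusted p below 0.05.

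Parts of 1 organ were compared in all 3 fractions of the colon and in GFP-high cells of the small intestine. Distal against proximal colon called 0 genes in GFP-high and GFP-intermediate cells, by edgeR and DESeq2, with 0 and 1 at an unadjusted p below 0.05, where 18.8% and 16.1% of all genes were. In GFP-negative cells it called 1, Bub3 (0.30 ± 0.11, adjusted p = 0.047). Of all genes 3.74%, 3.27% and 6.39% were higher. Bub3 was at 54.5, 60.3, 58.6 and 60.4 CPM in proximal and, as above, 61.3 to 89.4 CPM in distal colon GFP-negative cells. The call was lost without distal colon library 2 or 3 or proximal colon library 1 or 3. The medians of 0.06, 0.04 and 0.22 turned to -0.19, -0.20 and -0.04 without the distal colon libraries numbered 3, an alternative chosen after seeing the data. The proximal colon libraries numbered 3 were kept. Their sums were also the highest of 4 in GFP-high (5214 CPM) and GFP-intermediate cells (3661 CPM). In these fractions the alternative thus removes a high library from the distal side only, so its change of sign cannot be read as a difference between the parts. In GFP-high cells of the small intestine 2 genes were higher distally than proximally, where 6.39% of all genes were, so the members' count is near the background. The 2 are Ndc80, of the microtubule-binding kinetochore complex (0.75 ± 0.24, adjusted p = 0.0338), and Kif23, a motor of the central spindle (0.64 ± 0.20, adjusted p = 0.0303). With the block 5 were higher distally (7.24%), and 0 without GFP-high library 1 or 3 of the distal or 1, 2 or 3 of the proximal small intestine. The median was 0.37, larger in size than that between the organs in GFP-high cells. The sums of the 4 distal libraries, 5816 to 6413 CPM, lay above the 4347 to 5244 CPM of the proximal ones. Of the 40 genes, 28 were higher distally in 4 of 4 same-number pairs (19.4% of all genes), and 24 had no overlap between the groups (12.5%). At an unadjusted p below 0.05, 13 were higher (13.4%), and a fit of only these 2 groups called 25 (15.1%).

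Most other genes of the division machinery moved with the members between GFP-high and GFP-negative cells. Of 33 further kinetochore and centromere genes, 30 to 32 rose in each part, and 26 to 30 of 30 further spindle and cytokinesis genes did. In the distal colon Cenpp rose by 1.90 ± 0.23 and the spindle protein Ckap2 by 1.57 ± 0.21. Of 16 condensin and cohesin genes 13 to 16 rose, and in the distal colon the condensin subunits Smc2 and Ncapd2 differed by 1.37 ± 0.26 and 1.30 ± 0.20. APC/C subunits and regulators, many of them needed outside mitosis too, include 17 genes, of which 11, 11, 11, 9 and 6 rose from the proximal small intestine to the distal colon, while 1, 1, 1, 0 and 1 fell: Anapc2 in the small intestine and Anapc16 in the distal colon. Of 18 regulators of the G2/M transition, 12, 13, 14, 10 and 10 rose and 1, 2, 1, 0 and 0 fell: Ensa in each small intestinal part and Cdc25a in the middle. Wee1, the kinase that restrains CDK1, rose by 2.34 ± 0.19 in the distal small intestine and 1.11 ± 0.18 in the distal colon. Foxm1, the transcription factor of mitotic genes named above, rose in all 5 parts, by 1.11 to 1.53. More genes of cell cycle exit fell than rose: 6 or 7 of 12 fell in each part and 0 to 4 rose. Over all genes 24.6%, 25.6%, 26.2%, 14% and 13.9% fell, in the same order of parts. Between 11.2% and 25.7% of all genes rose. Cdkn1a, the inhibitor p21, fell by 3.38 on the log2 scale in the distal small intestine and by 2.01 in the distal colon.

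Genes of DNA replication, the step before mitosis, served as the nearest comparison. Of 41 S phase genes 40, 40, 40, 38 and 34 were higher in GFP-high cells than in the GFP-negative ones. Between GFP-high and GFP-intermediate cells 0 were called in each part, and their medians were -0.04, 0.05, -0.04, 0.00 and 0.28, each below the median of the mitosis genes given above. At an unadjusted p below 0.05, 0, 1, 0, 0 and 13 were higher and 0, 2, 3, 2 and 1 lower. Of all genes 3.66% to 12.2% were higher at that threshold over the 5 parts, with 9.7% in the distal colon, and 5.62% to 14.9% were lower. The summed level of the S phase genes in GFP-high cells was 0.737 to 1.29 times that of GFP-intermediate cells in the proximal colon, where the sum of the mitosis genes was 1.12 to 1.60 times as high. In the colon 36 S phase genes were lower than in the small intestine in GFP-high cells, 40 in GFP-intermediate and 4 in GFP-negative cells. Of all genes 21.3%, 22.0% and 22.4% were, so the count in GFP-negative cells is below the background. The interaction of organ with GFP-high against GFP-negative cells was negative and called for 30 of the 41, against 2 of the 40 mitosis genes and 17.7% of all genes. The difference between these lists was not tested.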

How the data were processed

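PolyA RNA of sorted cells was measured in 60 libraries (15 groups of 4). The values used are the whole-number counts per gene and library and the gene length that the authors deposited. The tools named in the submitters' processing notes are STAR, featureCounts of Subread, and edgeR, with the mm10 build. The versions, annotation release and strand setting are not given in the sources used here, so reads of overlapping or antisense genes cannot be told apart. A further 6 deposited value columns were not used.

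Counts of 23360 genes kept by filterByExpr entered the quasi-likelihood model of edgeR 4.0.16 with TMM scaling (limma 3.58.1, R 4.3.3), fitted over all 60 libraries, with 45 residual degrees of freedom. Tests of 25 comparisons were two-sided, with Benjamini-Hochberg adjustment over all genes of a comparison and calls below 0.05. The SE was taken as the size of the log2 difference over the square root of F. CPM use TMM-scaled library sizes, and RPKM also the deposited length. Total counts ran from 55411864 to 113917959, and each group has 4 libraries. The fit was tested on simulated data. Alternatives were DESeq2 1.42.0 size factors and Wald test, total counts, no filter, a newer quasi-likelihood method, a fold of at least 2, a fit restricted to the groups compared, a replicate block, and libraries left out.

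Library numbers equal the deposited batch number in 60 of 60 libraries and were read as pairs for the block. Residuals over 8000 genes correlated by 0.168 on average over 420 same-number pairs, within and across organs, 58.8% of them above 0.1. Over other pairs the average was -0.0521. Residuals were taken from the group mean, which by itself sets the average over other pairs to the opposite sign, so it is no separate check. Between GFP-high and GFP-negative cells of a part the same-number average was 0.232, 0.0764, 0.0885, -0.201 and 0.0124 from the proximal small intestine to the distal colon. It was 0.229 to 0.627 between GFP-high and GFP-intermediate cells and 0.236 to 0.479 between GFP-intermediate and GFP-negative cells. Number 1 differs between organs in its sex-linked transcripts, so pairs are counted within an organ only. The block, which is shared by all groups, is less certain across organs.

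The members, lists and comparisons were chosen with earlier results of these data known. Any member may be named; values in every library are given for genes chosen by role, and differences for these, for the extremes and for members not called. Other lists give up to 3 genes with the smallest p, and Lgr5; Foxm1 and the others named beyond this rule were chosen after their values were seen.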

Additional observations from a re-analysis of the deposited data

Results flagged for a closer look

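In 60 of 600 sets of 4 (40 genes in 15 groups, 10.0%) a library stood far from the other 3 of its group. This was judged by the size of its gap relative to the range of the 4. For normally distributed values chance gives about 1 in 20. The 40 genes of a group share its 4 libraries, so the sets are not independent. Of the 60 sets, 31 lay among the 120 sets of the distal colon, and all 31 concerned library 3. Library 3 of the GFP-intermediate distal colon had a summed level of 4539 CPM against 2561 to 2853 CPM in the others, and Nusap1 at 91.2 CPM. In the GFP-negative distal colon library 3 had Cdk1 at 58.2 CPM and Ccnb1 at 52.7 CPM, in both cases the highest of 4. Elsewhere, Top2a was at 404 CPM in library 4 of the GFP-negative middle small intestine. Bub3 was low at 98.1 CPM in library 4 of the GFP-high middle small intestine and at 92.9 CPM in library 3 of the GFP-intermediate proximal small intestine.

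The difference between GFP-high and GFP-negative cells was not equal in the organs, by the interaction test, for Plk1 (-0.53, colon minus small intestine) and Bub3 (-0.32). They were the only members called, where 17.7% of all genes were lower, so the members' count is below the background. The call of Plk1 was lost without the GFP-negative library of the distal colon named above. It was also lost without the libraries numbered 1.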

How the results depend on the processing

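No member changed sign while called under any alternative run, and the 38 genes higher in GFP-high than GFP-negative cells numbered 37 to 39 with any 1 library left out. Other counts below are members called, in the direction with more calls in the main fit, where they moved by over 1.5 times. The cause was not tested except where fewer libraries or a stricter rule made the change. DESeq2's Wald test called, between GFP-high and GFP-intermediate cells, 1 in the middle and 5 in the distal small intestine and 8 in the distal colon, 0 between colon parts in GFP-negative cells and 4 between distal and proximal small intestine. DESeq2 size factors gave 0 between colon parts in GFP-negative cells. A fold of at least 2 left 0 for GFP-high against GFP-intermediate in the distal small intestine, 19, 12 and 2 for GFP-intermediate against GFP-negative in the middle small intestine, proximal colon and distal colon, 0 for colon against small intestine in each fraction, and 0 between colon parts (GFP-negative), between small intestinal parts and for the organ interaction. With no filter, colon against small intestine gave 7 in GFP-high cells, and colon parts gave 0 in GFP-negative cells. A fit of only the groups compared gave 3, 20 and 20 for GFP-high against GFP-intermediate in the small intestine (proximal, middle, distal), 6 in the distal colon, 6 for GFP-intermediate against GFP-negative in the distal colon, 2 and 0 between colon parts in GFP-intermediate and GFP-negative cells, and 25 between small intestinal parts. With total counts, colon against small intestine gave 7 lower in GFP-high cells, and 2 lower and 5 higher in GFP-negative cells. Total counts also gave 0 between colon parts (GFP-negative) and 4 for the organ interaction. The replicate block gave 8 and 3 for GFP-high against GFP-intermediate in the distal small intestine and distal colon, 31 for GFP-intermediate against GFP-negative in the distal colon and 5 between small intestinal parts; in no comparison did it lose a call, and in colon against small intestine it added 3, 3 and 1. Without number 1 in every group, GFP-high against GFP-intermediate gave 0 in the distal small intestine, colon against small intestine 7 in GFP-high cells and small intestinal parts 0.

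Alternatives chosen after seeing the data were the block within a part (GFP-high against GFP-intermediate 2, 2 and 28 in the middle and distal small intestine and distal colon; GFP-intermediate against GFP-negative 37 in the distal colon) and leaving out the distal colon libraries numbered 3 (colon against small intestine 24 and 21 in GFP-high and GFP-negative cells, colon parts 0 in GFP-negative cells). Leaving out 1 library gave 0 to 1 for GFP-high against GFP-intermediate in the distal colon and in the distal small intestine, 4 to 31 (distal colon) and 29 to 37 (proximal colon) for GFP-intermediate against GFP-negative, 7 to 22, 28 to 35 and 8 to 18 for colon against small intestine in GFP-high, GFP-intermediate and GFP-negative cells, 0 to 1 between colon parts (GFP-negative), 0 to 3 between small intestinal parts and 1 to 2 for the organ interaction. Colon against small intestine gave 7 in GFP-high cells without library 1 or 2 of the distal or 4 of the proximal colon and 22 without distal library 3, and in GFP-negative cells 18 without distal colon library 3 and 14 without distal small intestinal library 1.

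The scaling moved the median of all genes by over 0.1 in 12 cases, at most by 0.22 with total counts and by -0.15 with DESeq2 size factors. Over all genes, and leaving the fold rule aside, the number called (lowest to highest over the alternatives) was, for GFP-high against GFP-intermediate cells, 105 (41 to 2400), 836 (92 to 3545), 3165 (172 to 4396), 10 (0 to 72) and 422 (3 to 3433) from the proximal small intestine to the distal colon. It also moved by over 1.5 times for GFP-high against GFP-negative cells in the proximal colon (5912, 2899 to 7121) and distal colon (5875, 3586 to 6541), for GFP-intermediate against GFP-negative cells there (3511, 2232 to 4452, and 2289, 1479 to 2759), for colon parts in GFP-intermediate (1715, 1247 to 3736) and GFP-negative cells (3168, 1709 to 4638), for small intestinal parts (2759, 1186 to 4996), for the organ interaction with GFP-high against GFP-intermediate (68, 18 to 275) and for the colon part interaction (144, 52 to 275). The 41, 92 and 172 for GFP-high against GFP-intermediate cells and the 1186 for small intestinal parts came without number 1 in every group.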
